A study of Mus musculus with 12 samples.

Results

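The complement and coagulation genes described here are 31 genes that the liver expresses to make plasma proteins of complement and clotting. They encode proteases, cofactors, inhibitors and other complement components, such as those of the terminal pathway. They were picked by symbol from the 52636 gene identifiers of the count files, and all 31 passed the filter on low counts that left 14433 genes for testing. RNA was sequenced from the liver of C57BL/6 mice aged 12 weeks of either p53 genotype, wild type (wt) or knockout (ko), on a normal diet or on HFD, which stands for high-fat diet. The 4 groups are wt_normal, ko_normal, wt_HFD and ko_HFD, each with 3 libraries, and the labels give neither the design of the ko allele nor how long the diet lasted. The labels do not say whether the 3 libraries of a group came from separate mice, so every p-value measures the spread between libraries, which may be technical. Levels are in CPM, a library's counts scaled to a common total by edgeR, and a gene was called where its Benjamini-Hochberg adjusted p was under 0.05 over all 14433 genes in the quasi-likelihood test of edgeR.

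Hepatocytes release most clotting factors and complement proteins into the blood as inactive precursors, and each cascade runs by 1 protease cutting the next. In coagulation, the contact system and the vitamin K-dependent factors lead to thrombin, which cuts fibrinogen, while antithrombin, heparin cofactor II and the protein C system hold the cascade back and plasmin dissolves the clot. In complement, the classical, lectin and alternative pathways meet at C3, and the terminal components then assemble into a pore in the target membrane. Several of these genes belong to the acute phase response, in which inflammatory cytokines raise the output of plasma proteins from the liver.

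The stretch of 250 bases before the start of transcription is printed for 3 members whose levels are described at length below, C3, C8a and F11, with the match to a motif of a liver or acute phase factor in capitals. The sequences are RefSeq promoters of build GRCm38.p6, all on the minus strand and written 5′ to 3′ along the gene. They lie at chr17:57228137-57228386 for C3, chr4:104876399-104876648 for C8a and chr8:45262032-45262281 for F11. The capitals mark TTGCNNAA, a C/EBP motif, in C3 and on the reverse strand in F11, and TTCNNNGAA, a STAT3 motif, in C8a.
C3: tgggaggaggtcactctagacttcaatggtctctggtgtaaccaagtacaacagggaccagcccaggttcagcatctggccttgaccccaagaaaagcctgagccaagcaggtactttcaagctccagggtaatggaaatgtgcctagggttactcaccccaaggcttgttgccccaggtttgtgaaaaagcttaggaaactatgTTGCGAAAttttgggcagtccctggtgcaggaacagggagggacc
C8a: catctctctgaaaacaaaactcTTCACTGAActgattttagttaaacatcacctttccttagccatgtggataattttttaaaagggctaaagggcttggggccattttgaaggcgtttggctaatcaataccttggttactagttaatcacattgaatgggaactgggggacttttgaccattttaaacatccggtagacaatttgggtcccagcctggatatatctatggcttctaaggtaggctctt
F11: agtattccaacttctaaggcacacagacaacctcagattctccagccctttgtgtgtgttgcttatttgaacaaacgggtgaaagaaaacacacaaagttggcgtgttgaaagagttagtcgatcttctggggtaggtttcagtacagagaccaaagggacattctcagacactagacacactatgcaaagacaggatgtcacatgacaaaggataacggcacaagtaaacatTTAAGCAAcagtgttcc

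In these windows the C/EBP match began 45 bases before the start in C3 and 17 bases before it in F11, and the STAT3 match began 228 bases before it in C8a. All 3 printed windows hold a match. The windows of F7, F10, C6, C8b and Serpinf2, also described below, hold no motif searched and are not printed. Promoters were matched for 22 of the 31 genes, 23 promoters in all because C8g had a pair. The STAT3 motif, searched on both strands, lay in 4 of these 23 promoters (17.4%), those of C8a, F9, Masp2 and Pros1, and in 7.02% of all 32851 promoters. The C/EBP motif lay in 5 (21.7%), those of C3, C9, F11, F9 and Klkb1, and in 9.56% of all. The HNF1 motif GTTAATNAT lay in 2 (8.7%), those of F13b and Hc, against 0.737% of all, and the HNF4 motif CAAAGTCCA lay in 0 against 0.384% of all. A p53 decamer lay in 3 (13%), those of F12, F13b and F5, against 7.13% of all. No match overlapped a match to another motif, and a match describes the letters of the window only.

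Total counts ran from 15465187 to 20492567 per library. Trp53, the gene that encodes p53, had 8.54 to 24.5 CPM in the wt libraries and 0.273 to 1.62 CPM in the ko libraries. Summed hepatocyte markers, of which 9 of 10 were matched and none was at 0, stood at 56844 to 77376 CPM in wt_normal, 90868 to 97188 CPM in ko_normal, 69220 to 78417 CPM in wt_HFD and 99810 to 103487 CPM in ko_HFD. Within these sums the marker Alb alone had group means of 23207, 42741, 23292 and 41884 CPM in that order. Library wt_normal 2 stood apart, since its summed skeletal muscle markers reached 9795 CPM against at most 12.7 CPM elsewhere. Library ko_HFD 1 stood apart from the others of its group by the acute phase gene Saa1, at 15302 CPM against 169 and 271 CPM. In these bulk samples, fewer cells of a type and less RNA per cell cannot be told apart.

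Per length of exon, the 31 genes spanned a wide range of levels. Vtn, which encodes vitronectin, had the highest mean over 12 libraries at 2121 CPM per kilobase of exon, followed by C3 at 1373, the kininogen gene Kng1 at 763 and the plasminogen gene Plg at 610.4 CPM per kilobase. The lowest were Cfb, which encodes complement factor B, at 0.513, the lectin pathway protease gene Masp1 at 0.638 and the protein S gene Pros1 at 12.7 CPM per kilobase. Cfb counted only 0.115 to 3.8 CPM per library, although factor B is a plasma protein that the liver supplies. In the GENCODE annotation the model Gm20547 shares 79.5% of the Cfb exon bases and 42.8% of those of C2 on the same strand, Gm45753 shares 43.2% of those of Klkb1, and both models had 0 counts in all libraries. The levels of Cfb, C2 and Klkb1 are therefore uncertain, as are those of C4b and Kng1, which have near-identical copies in C4a and Kng2. Masp2 and Serpinc1 share 54.9% and 34.4% of their exon bases with Tardbp and Zbtb37 on the opposite strand, and whether the counting used strand is not stated in the labels.

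**Figure D1:**
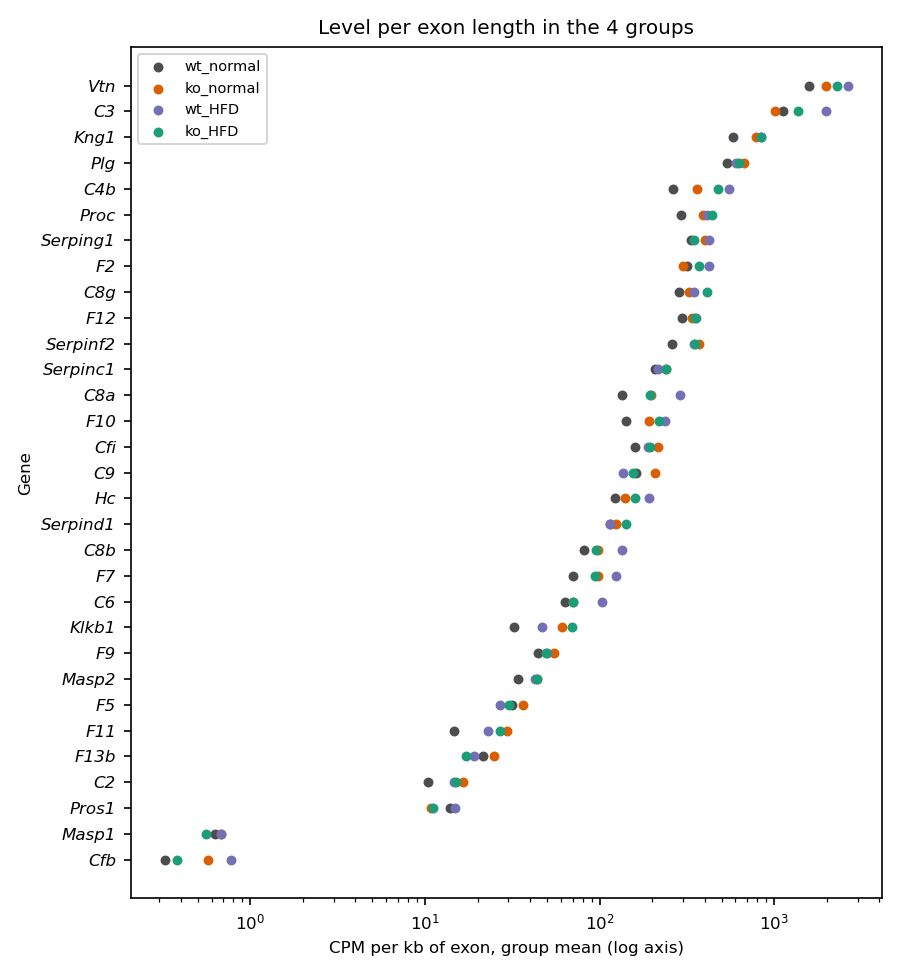
Group mean level of each gene in CPM per kilobase of exon, on a log axis, with a point for each of the 4 groups. Vtn and C3 stand at the top, and Masp1 and Cfb stand lowest, each below 1 CPM per kilobase on average.

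Across the 4 groups, the wt_normal livers held the lowest group mean for 23 of the 31 genes (74.2%), against 26.3% of all genes tested, and the highest for 0, against 30.9%. The wt_HFD livers held the highest mean for 16 genes (51.6% against 26% of all), among them C3, C4b, C8a, C8b, F2, F7, F10 and Vtn. The ko_normal livers held the highest mean for 11 genes (35.5% against 24.3%), among them F11, Serpinf2, C2, C9 and Plg. Single libraries stood out in the map of the genes by library. Library wt_normal 2 was the lowest of the 12 for 17 genes (54.8%, against 9.44% of all), and ko_HFD 1 was the highest of the 12 for 11 genes (35.5%, against 7.31%).

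**Figure D2:**
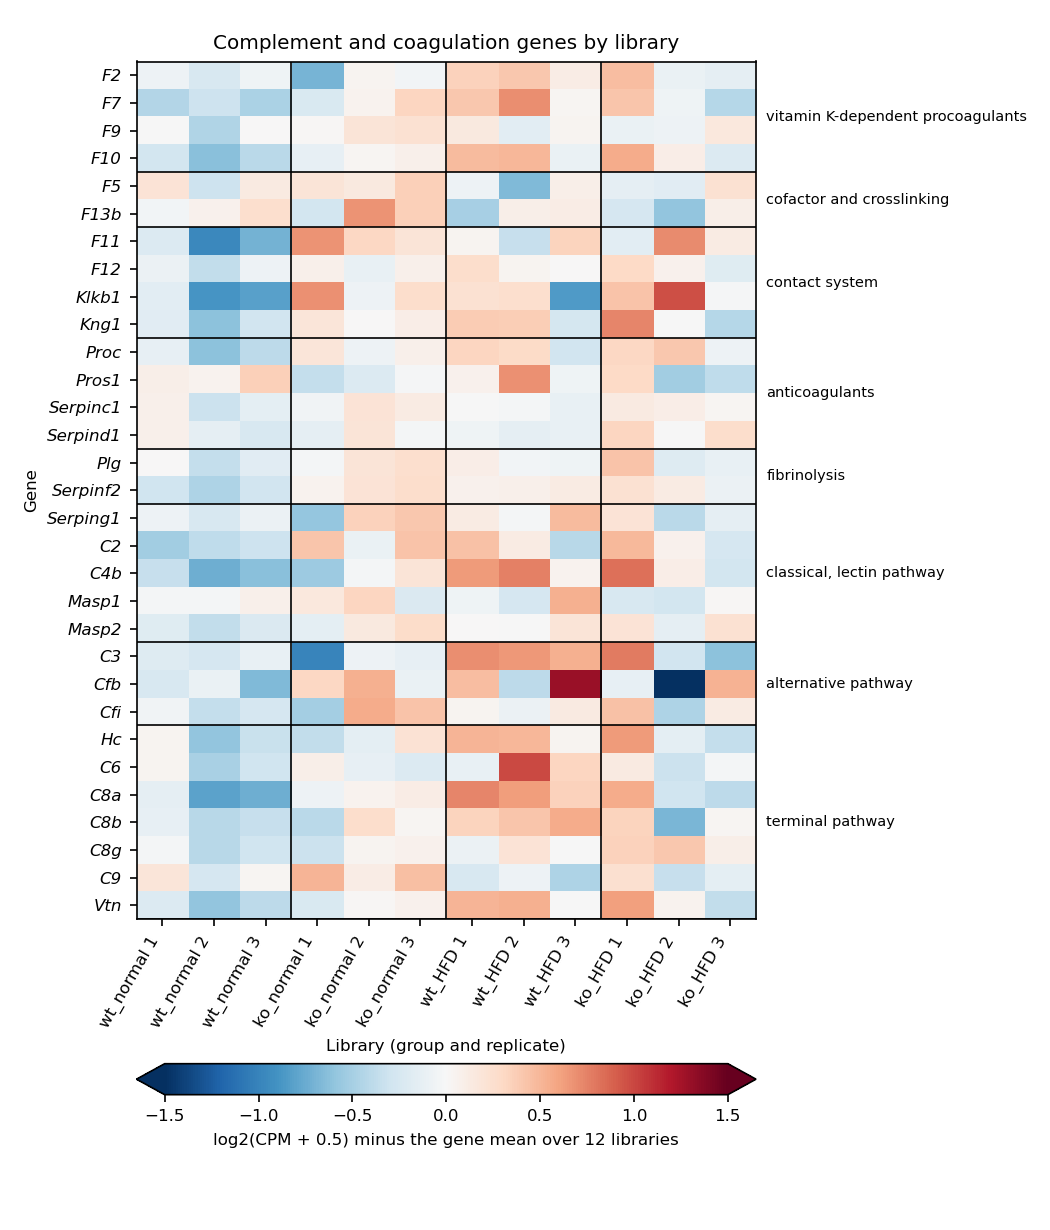
Level of the 31 genes in the 12 libraries, grouped by role, as log2(CPM + 0.5) minus the mean of the gene over all libraries. Blue marks levels below and red levels above that mean. The wt_normal columns are mostly blue, the wt_HFD columns and ko_HFD 1 are red for many complement and procoagulant genes, and ko_HFD 2 and 3 are not.

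In wt livers, 27 of the 31 genes were on average higher on HFD than on normal diet, against 47.2% of all genes, with a median log2 change of 0.43 against -0.03 over all genes. Apart from Cfb, which had few counts, the largest differences lay in the pore subunit C8a, in C4b of the classical pathway, in C3 and in the vitamin K-dependent factor F7, followed by Vtn and F10. None of the 31 passed the test in edgeR, where 0.693% of all genes did, while DESeq2 called 5 of them (C8a, C4b, F7, F10 and Serpinf2) and limma voom 1 (C8a), in fits that called 665 and 217 genes in all. At an unadjusted p under 0.05 there were 12 genes, all higher on HFD (38.7%, against 8.49% of all genes higher and 17% in either direction). For 12 genes every wt_HFD library lay above every wt_normal library (38.7%, against 11.2% of all genes), and for 0 genes every library lay below (against 10.7%).

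C8a (ENSMUSG00000035031, chromosome 4, 104815679 to 104876398) encodes the alpha chain of C8, which inserts into the target membrane. Its level was 638, 401 and 421 CPM in wt_normal and 1161, 1084 and 888 CPM in wt_HFD. All 3 HFD libraries lay above the normal diet libraries, and wt_normal 1 was the highest of its group. The fitted log2 change was 1.1 (SE 0.27), a 2.14-fold difference, with an adjusted p of 0.0852, and the adjusted p was 0.0342 when library ko_HFD 1 was left out of the fit.

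C4b (ENSMUSG00000073418, chromosome 17, 34728380 to 34743882) encodes C4, which is cut to form the C3 convertase of the classical and lectin pathways. It had 1741, 1338 and 1436 CPM in wt_normal and 3436, 3733 and 2298 CPM in wt_HFD. The groups did not overlap, and wt_HFD 3 was nearest to the normal diet. The log2 change was 1.07 (SE 0.30, adjusted p 0.116), and with the counts of C4a added it was 1.14 (adjusted p 0.101). F7 (ENSMUSG00000031443, chromosome 8, 13026034 to 13035809) encodes factor VII, the protease that starts coagulation with tissue factor. It had 128, 140.4 and 125 CPM in wt_normal and 230.4, 282 and 177 CPM in wt_HFD. Here too the groups did not overlap, with a log2 change of 0.81 (SE 0.24, adjusted p 0.125).

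C3, named here after its values were seen because the complement pathways meet at it, had 5754, 5534 and 6108 CPM in wt_normal and 10691, 10368 and 9551 CPM in wt_HFD. The groups did not overlap, and the log2 change was 0.82 (SE 0.34, adjusted p 0.252) in the fit, which shares 1 estimate of the spread over the 4 groups. The SD of C3 was 290 and 590 CPM in these 2 groups, 1600 CPM in ko_normal and 3800 CPM in ko_HFD. F10, which encodes factor X, had 433, 338 and 395 CPM in wt_normal and 728, 739 and 486 CPM in wt_HFD, again without overlap (log2 change 0.74, SE 0.23, adjusted p 0.139). By role, 6 of the 7 terminal pathway genes, all 4 contact system genes and all 4 vitamin K-dependent factors were higher on average in wt_HFD, with medians of 0.70, 0.54 and 0.58. So were all 3 alternative pathway genes (median 0.82), all 5 classical and lectin pathway genes (median 0.34) and both fibrinolysis genes (median 0.30). Both genes of the cofactor and crosslinking group, F5 and F13b, were lower on average, with log2 changes of -0.21 and -0.17. The 4 anticoagulants had a median of 0.09, and 3 of them were higher on average, with the largest change in Proc (log2 change 0.49, SE 0.22, adjusted p 0.274). C9, the terminal component that forms most of the pore, had a log2 change of -0.25 (SE 0.20) and was 467, 348 and 420.3 CPM in wt_normal and 349, 393 and 299 CPM in wt_HFD.

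Other measures moved with this comparison, and their part in it was not tested. The 12 acute phase reference genes summed to 16628 to 30232 CPM in wt_normal and 70250.2 to 79657 CPM in wt_HFD, and 11 of the 12 were higher on average, with a median log2 change of 1.79 and 1 called. All 11 markers of liver sinusoidal endothelium were lower on average in wt_HFD (median -0.66, summed 479 to 546 CPM against 336 to 460.2 CPM). So were 12 of 13 stellate cell markers (median -0.70, summed 429 to 1034 CPM against 304 to 484 CPM) and all 5 B cell markers tested (median -2.99, summed 66.7 to 251 CPM against 34.6 to 79.6 CPM). The highest sum of both lists lay in wt_normal 2, at 1034 and 251 CPM. Of the 1034 CPM, 547 CPM came from the stellate cell marker Des, which had 7.76 and 17.9 CPM in wt_normal 1 and 3. In wt_normal 1 and 3 the stellate cell markers summed to 429 and 458 CPM, and the B cell markers to 73.7 and 66.7 CPM. Without library wt_normal 2, the one with muscle transcripts, 27 of 31 genes were still higher on average, every wt_HFD library lay above every remaining wt_normal library for 12 genes (against 15.2% of all genes) and below for 2 (6.45%, against 16.2%), and the smallest adjusted p was 0.25. With library totals in place of TMM factors, the median was 0.25 for the 31 genes and -0.21 for all genes.

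**Figure D3:**
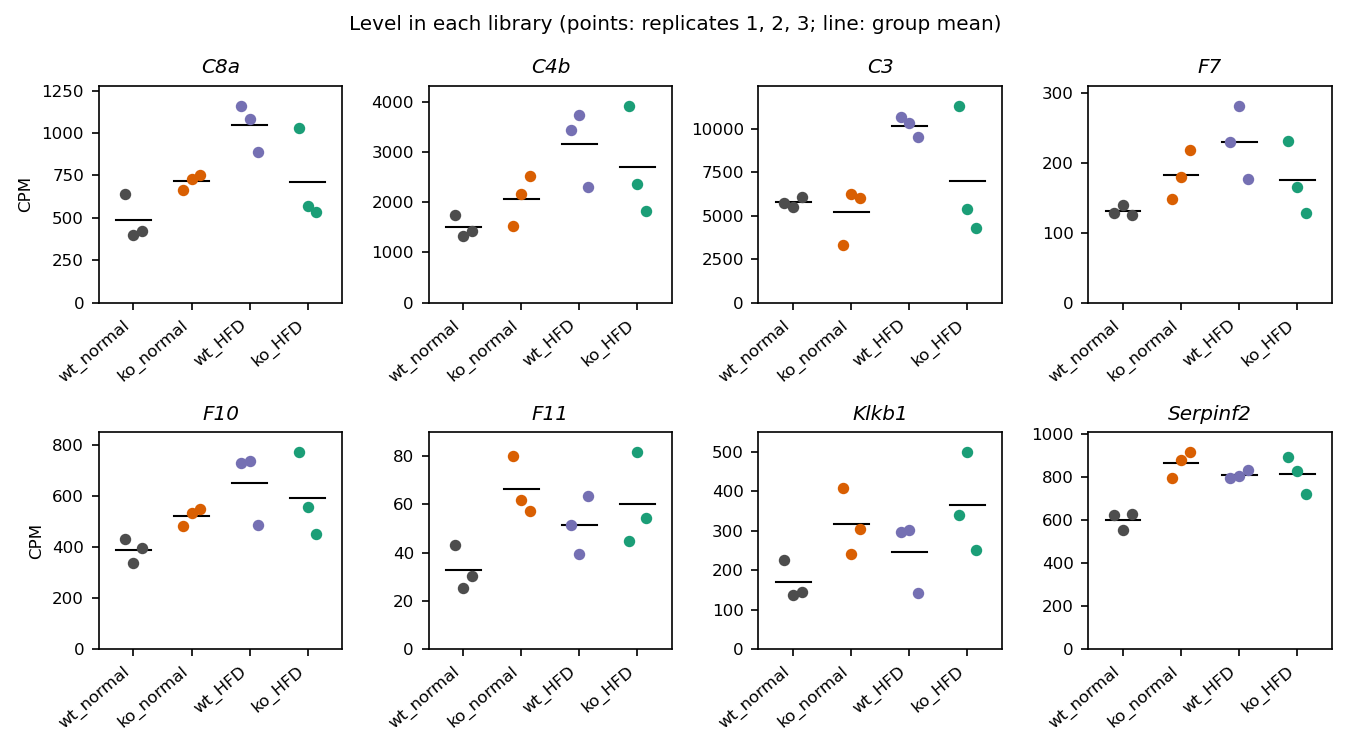
CPM of 8 genes in each library, with the points of a group in the order of replicates 1, 2 and 3 and a line at the group mean; every axis starts at 0. For C8a, C4b, C3, F7 and F10 the first point of ko_HFD is the highest of its group; for C8a, C3 and F7 the other 2 lie below every wt_HFD point, and for C4b and F10 the second lies within them, and for F11, Klkb1 and Serpinf2 the wt_normal points are low.

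In ko livers the 31 genes showed no shared direction between the diets. On HFD 14 were higher on average (49.4% of all genes were), the median log2 change was 0.00 for these genes and 0.00 for all genes, and 0 genes were called in edgeR among the 31 or among all (0%). None of the 31 had an unadjusted p under 0.05 (against 5.63% of all genes), and DESeq2 and limma voom called 0 of them as well. In 1 gene, C8g, every ko_HFD library lay above every ko_normal library (against 5.45% of all genes), and in 0 every library lay below (against 5.96%).

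The genes with the smallest p in this comparison were F13b, C9 and C8g. F13b (ENSMUSG00000026368, chromosome 1, 139501702 to 139523752), the carrier subunit of the factor that crosslinks fibrin, had 42.1, 81.6 and 65.4 CPM in ko_normal and 42.8, 33.6 and 53.9 CPM in ko_HFD. The groups overlapped, and the log2 change of -0.54 (SE 0.25, adjusted p 0.868) was -0.30 without ko_normal 2. C9 (ENSMUSG00000022149, chromosome 15, 6445327 to 6498751) had 587, 446 and 565 CPM in ko_normal and 489.7, 326 and 373 CPM in ko_HFD, which overlapped (log2 change -0.43, SE 0.20, adjusted p 0.868). C8g (ENSMUSG00000015083, chromosome 2, 25498651 to 25501719), the gamma chain of C8, had 404, 520.1 and 526 CPM in ko_normal and 643, 667 and 535 CPM in ko_HFD. Its groups did not overlap, with a log2 change of 0.35 (SE 0.18, adjusted p 0.868) that was 0.23 without ko_normal 1.

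The 3 ko_HFD libraries lay on different sides of the ko_normal libraries. Library ko_HFD 1 lay above every ko_normal library for 18 genes (58.1%, against 27% of all genes) and below for 5 (16.1%, against 27%). Library ko_HFD 2 lay above for 5 (16.1%, against 24.7%) and below for 12 genes (38.7%, against 25.9%), and ko_HFD 3 lay above for 2 (6.45%, against 23.7%) and below for 12 (38.7%, against 22.8%). C3 had 11352 CPM in ko_HFD 1 and 5421 and 4313 CPM in the other 2, a ratio of 2.33 to their mean. The same ratio was 1.91 for Kng1, 1.87 for C4b, 1.86 for C8a and 1.85 for Hc, which encodes complement C5. It was below 1 for F11 (0.658), F5 (0.88), F9 (0.904), Klkb1 (0.907), Masp1 (0.912) and F13b (0.979). Without ko_HFD 1, 7 of the 31 genes were higher on HFD in ko livers, the median was -0.16, and every remaining ko_HFD library lay below every ko_normal library for 5 genes (16.1%, against 9.76% of all genes).

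The share of all counts taken by the 31 genes, which weighs each gene by its counts, followed the same split. It was 2.85%, 2.54% and 2.64% in wt_normal, 2.45%, 2.99% and 3.09% in ko_normal, 3.86%, 3.67% and 3.21% in wt_HFD and 4.04%, 2.8% and 2.5% in ko_HFD. The wt_HFD libraries lay above the wt_normal libraries, and ko_HFD 1 was the highest of all 12 while ko_HFD 3 was next to the lowest. C3 had the highest mean of the 31 genes in each group, so it weighed most in the share. Its group means were 5799 CPM in wt_normal, 5210.5 in ko_normal, 10203 in wt_HFD and 7029 CPM in ko_HFD. The 12 acute phase genes summed to 78200.1, 79657 and 70250.2 CPM in wt_HFD and to 83919.8, 19165 and 13405 CPM in ko_HFD. They summed to 16628, 22107 and 30232 CPM in wt_normal and to 10314, 25950.4 and 20745 CPM in ko_normal. The 4 libraries with the highest member share were the 4 with the highest acute phase sum. The 2 orders matched less well at other depths, with 1 library shared by the top 2, 5 by the top 7 and 6 by the top 8. Outside those 4, wt_normal 3 had the highest acute phase sum, 30232 CPM, with a share of 2.64%. Saa2, a second serum amyloid A gene, had 13452, 16476 and 14741 CPM in wt_HFD and 18275, 81.9 and 222 CPM in ko_HFD. Whether the levels of the 31 genes depend on the acute phase was not tested.

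**Figure D4:**
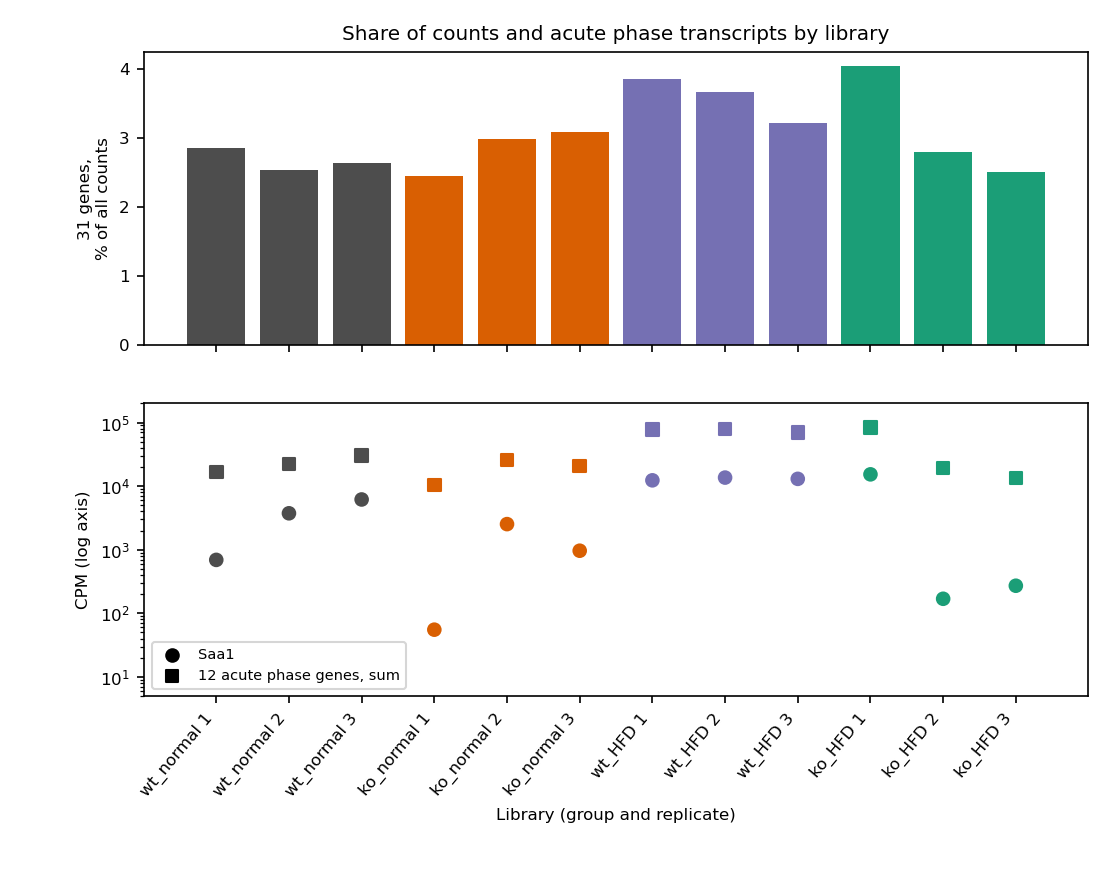
Upper panel, share of all counts taken by the 31 genes in each library, in percent; lower panel, CPM on a log axis of Saa1 (circles) and of 12 acute phase genes summed (squares). The 3 wt_HFD libraries and ko_HFD 1 have the highest bars, 3.21% to 4.04%, and the highest squares, 70250.2 to 83919.8 CPM.

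On normal diet, 28 of the 31 genes were on average higher in ko than in wt livers, against 48% of all genes, with a median log2 change of 0.31 against -0.02 over all genes. Apart from Cfb, which had few counts, the differences were largest in F11 and Klkb1 of the contact system and in C2 of the classical pathway. By p, F11 came first, followed by Serpinf2, the inhibitor of plasmin, then C2 and Klkb1. None of the 31 was called in edgeR, against 0.208% of all genes. At an unadjusted p under 0.05 there were 5, F11, Serpinf2, C2, Masp2 and Klkb1, all higher in ko, which is 16.1% against 7.31% of all genes higher and 15.1% in either direction. Every ko_normal library lay above every wt_normal library for 12 genes (38.7%, against 11.4% of all genes), and below for 1, Pros1 (3.23%, against 11.4%). Among the 12 were Cfb, C2, Klkb1 and Kng1, whose levels are uncertain as described above, and Masp2, which shares exon bases with Tardbp. This comparison and that of the diets in wt share the wt_normal libraries.

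F11 (ENSMUSG00000031645, chromosome 8, 45241174 to 45262031), whose promoter is printed above, encodes factor XI, the contact system protease that activates factor IX. It had 43.1, 25.2 and 30.3 CPM in wt_normal and 80.1, 61.8 and 57.3 CPM in ko_normal. The groups did not overlap, and the log2 change was 1.01 (SE 0.27), a 2.02-fold difference, with an adjusted p of 0.115. An exact permutation test of 3 against 3 libraries, two-sided, gave p = 0.1, the smallest p it can give. Klkb1 (ENSMUSG00000109764, chromosome 8, 45266689 to 45294859) encodes prekallikrein and lies 4657 bases from F11 on the same strand. It had 227, 138 and 144 CPM in wt_normal and 408, 240.3 and 305 CPM in ko_normal, again without overlap (log2 change 0.91, SE 0.34, adjusted p 0.228).

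Serpinf2 (ENSMUSG00000038224, chromosome 11, 75431732 to 75439591) had 623, 552 and 628 CPM in wt_normal and 795, 879.9 and 916 CPM in ko_normal. The groups stood apart with little spread in either, and the log2 change was 0.52 (SE 0.16, adjusted p 0.149). C2 (ENSMUSG00000024371, chromosome 17, 34862604 to 34898265), the protease part of the C3 convertase with C4, had 36.9, 40.8 and 43 CPM in wt_normal and 71.4, 49.8 and 71.7 CPM in ko_normal. Its groups did not overlap, and the log2 change was 0.68 (SE 0.24, adjusted p 0.211). Pros1, the cofactor of protein C, ran the other way, with 53.6, 52.6 and 64.9 CPM in wt_normal and 39.5, 43.9 and 49.8 CPM in ko_normal. The fitted log2 change was -0.36 (SE 0.24, adjusted p 0.51). C3 and F2, the prothrombin gene, had log2 changes of -0.15 (SE 0.34) and -0.08 (SE 0.23), and both were lowest in ko_normal 1, at 3323 and 977 CPM.

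Summed hepatocyte markers were higher and those of endothelium and stellate cells lower in the same ko_normal libraries, and the part of any of them in these differences was not tested. The 9 hepatocyte markers had a median log2 change of 0.14 with 7 positive. Alb and Apoa1 differed most upward, with means of 23207 and 10611 CPM in wt_normal and 42741 and 17143 CPM in ko_normal. Tat and Cyp2e1 were lower in ko_normal, with log2 changes of -0.89 and -0.15. The 11 endothelial markers had a median of -0.96 with all 11 negative and a summed level of 253 to 412 CPM against 479 to 546 CPM in wt_normal. All 13 stellate cell markers were negative as well (median -1.04, summed 267 to 334 CPM against 429 to 1034 CPM). So were the 5 B cell markers tested (median -2.00, summed 49.4 to 82.3 CPM against 66.7 to 251 CPM). Library wt_normal 2 held the highest sum of both lists, and 547 CPM of its stellate cell sum came from Des. Without wt_normal 2, the lowest library for 17 of the 31 genes, 28 genes were still higher on average in ko, the median was 0.25, every ko_normal library lay above the remaining wt_normal libraries for 12 genes (against 15.1% of all genes), and the smallest adjusted p was 0.388. With library totals in place of TMM factors, the median was 0.17 for the 31 genes and -0.16 for all genes. DESeq2 called 2 of the 31, F11 and Serpinf2, and limma voom with sample weights called 9, in fits that called 529 and 1908 genes in all. F11 and Klkb1 were also high in ko_HFD 2, at 81.6 and 499 CPM, and ko_HFD 2 and ko_normal 1 were the 2 libraries with the highest share of mitochondrial counts, 10.3% and 14.6% against 4.18% to 7.22% elsewhere, whose part in these levels was not tested.

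On HFD the ko and wt livers showed no shared direction, with 13 of the 31 genes higher in ko on average (48.9% of all genes were) and a median log2 change of -0.03 against -0.01 over all genes. The terminal pathway genes C8a, C6 and C8b had the smallest p. None of the 31 was called in edgeR (against 0.0693% of all genes), none had an unadjusted p under 0.05 (against 8.85%), and DESeq2 and limma voom called 0. Every ko_HFD library lay above every wt_HFD library for 2 genes, the inhibitors of thrombin Serpinc1 and Serpind1 (6.45%, against 6.7% of all genes), and below for 0 (against 6.85%).

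C8a had 1161, 1084 and 888 CPM in wt_HFD and 1027, 569 and 534 CPM in ko_HFD. Only ko_HFD 1 overlapped the wt libraries, and the log2 change of -0.56 (SE 0.27, adjusted p 0.575) was -0.92 (adjusted p 0.232) without it. C8b (ENSMUSG00000029656, chromosome 4, 104766317 to 104804548), the beta chain, lies 11130 bases from C8a on the other strand. It had 318, 338 and 369.8 CPM in wt_HFD and 319, 156 and 258 CPM in ko_HFD, where again replicate 1 overlapped. Its log2 change of -0.49 (SE 0.25, adjusted p 0.6) was -0.25 without ko_HFD 2 and -0.73 without ko_HFD 1. C6 (ENSMUSG00000022181, chromosome 15, 4727175 to 4814967), which joins the growing complex after C5, had 242, 523 and 329 CPM in wt_HFD and 287, 209 and 257 CPM in ko_HFD. The groups overlapped, and the log2 change of -0.54 (SE 0.26, adjusted p 0.577) rested on wt_HFD 2, without which it was -0.19.

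Serpinc1 encodes antithrombin and had 1913, 1876 and 1776 CPM in wt_HFD and 2117, 2061 and 1968 CPM in ko_HFD. The groups lay close together without overlap, with a log2 change of 0.14 (SE 0.17, adjusted p 0.847). Serpind1, the heparin cofactor II gene, had 259, 245 and 249 CPM in wt_HFD and 337, 269 and 325 CPM in ko_HFD, also without overlap (log2 change 0.31, SE 0.16, adjusted p 0.616). Library ko_HFD 1 lay above every wt_HFD library for 18 genes (58.1%, against 22.4% of all genes) and below for 0 (against 23.1%), whereas ko_HFD 2 and 3 each lay below every wt_HFD library for 15 genes (48.4%, against 26.8% and 25.1% of all genes). With ko_HFD 1 left out, every remaining ko_HFD library lay below every wt_HFD library for 9 genes (29%, against 13.3% of all genes), 6 genes had an unadjusted p under 0.05 (against 9.78% of all genes in that fit), 0 were called and the median was -0.18.

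**Figure D5:**
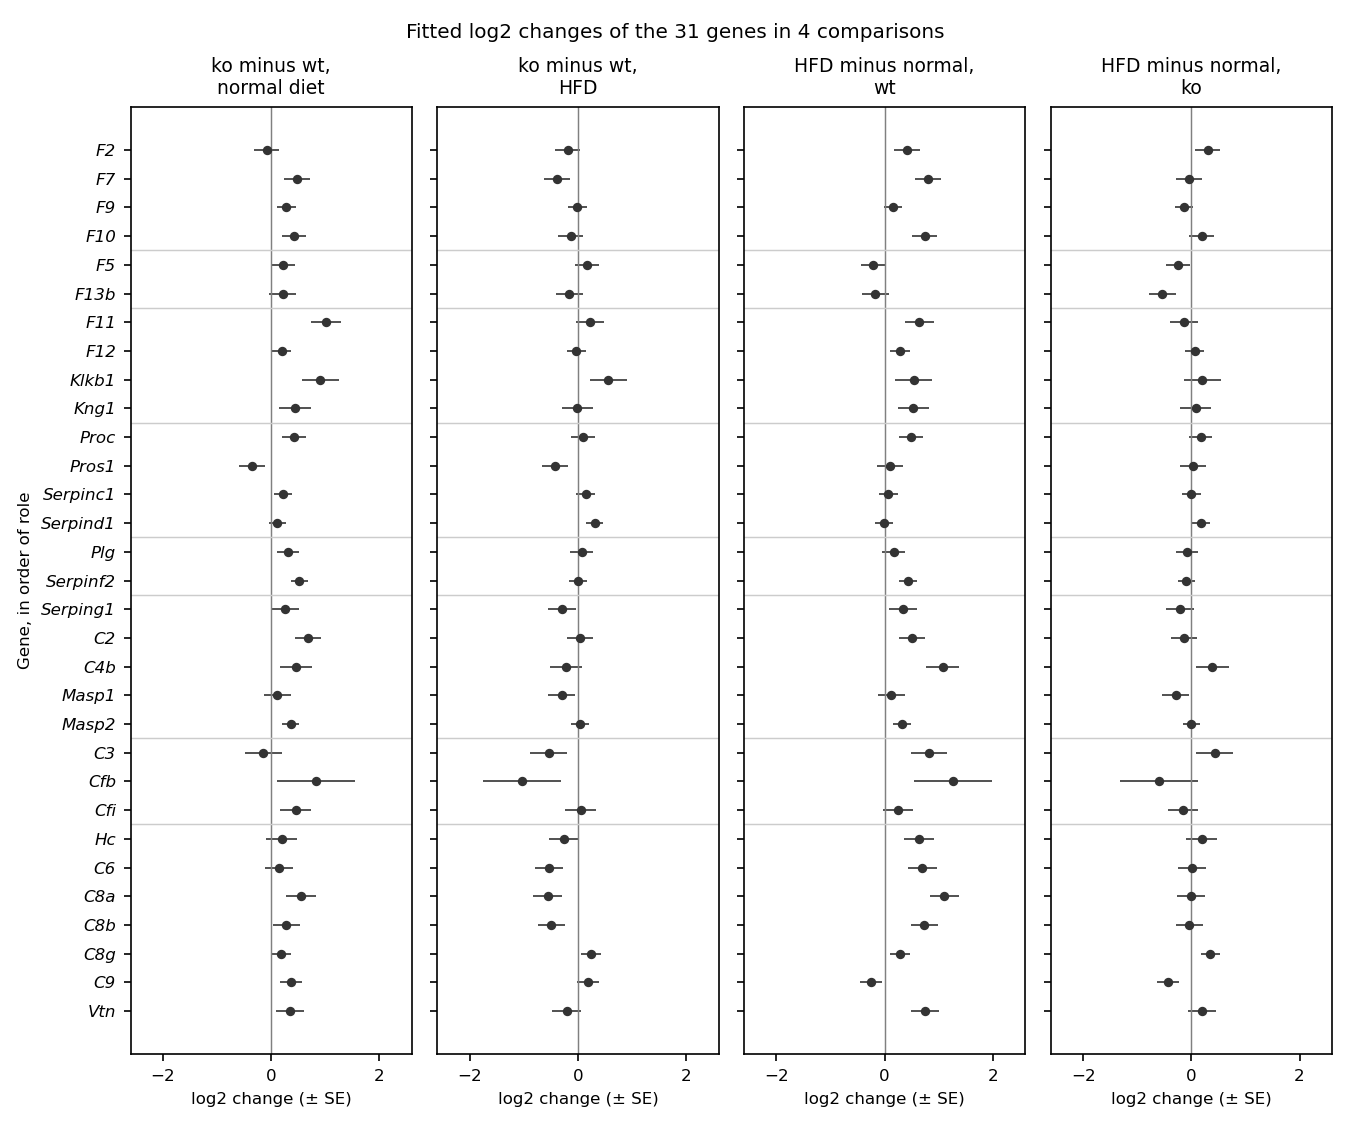
Fitted log2 change of each gene with its SE in 4 comparisons, with the genes in order of role. Most points lie right of 0 for ko against wt on normal diet and for HFD against normal diet in wt, and they lie around 0 in the other 2 panels; no point passed the test.

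Whether the ko effect depended on diet was tested as an interaction, the effect on HFD minus that on normal diet. It was above 0 for 2 of the 31 genes and for 50.7% of all genes, with a median of -0.40 against 0.01 over all genes. None was called in edgeR, and no gene of all tested was (0%); 4 of the 31 had an unadjusted p under 0.05 (against 5.02% of all genes), and DESeq2 and limma voom called 0 of the 31. C8a had an interaction of -1.11 (SE 0.38, adjusted p 0.913), F7 of -0.86 (SE 0.34, adjusted p 0.914) and Serpinf2 of -0.52 (SE 0.22, adjusted p 0.968). For F7 the levels behind it were 148, 180.2 and 218 CPM in ko_normal and 232, 166 and 129 CPM in ko_HFD, beside the wt values given above. For Serpinf2 they were 796, 803 and 835 CPM in wt_HFD and 892, 829 and 720 CPM in ko_HFD. The wt_normal group had the lowest mean for all 3 genes, but for C8a and F7 its libraries overlapped those of ko_HFD. Without ko_HFD 1 the median interaction was -0.62, 11 genes had an unadjusted p under 0.05 (against 6.21% of all genes in that fit) and the smallest adjusted p was 0.319; with library totals it was -0.25 against 0.17 over all genes.

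Averaged over both diets, ko against wt gave a median of 0.14, with 21 of 31 genes positive (48.3% of all genes) and 0 called in edgeR (against 1.16% of all genes). The smallest p belonged to F11 (log2 change 0.62, SE 0.19, adjusted p 0.114), followed by Klkb1 (0.73, SE 0.24, adjusted p 0.132) and Serpinf2 (0.26, SE 0.11, adjusted p 0.227). On HFD, F11 had 51.3, 39.3 and 63.3 CPM in wt and 44.8, 81.6 and 54.5 CPM in ko, which overlapped. Klkb1 had 297, 302 and 141 CPM in wt_HFD and 341, 499 and 252 CPM in ko_HFD, which overlapped as well. At an unadjusted p under 0.05 there were 4 of the 31 (against 18.7% of all genes), 3 higher in ko and 1 lower. The lower gene was Pros1 (log2 change -0.40, SE 0.17, adjusted p 0.237). DESeq2 called 2, F11 and Klkb1, and limma voom called 0, in fits that called 860 and 664 genes in all. The median was 0.05 without ko_HFD 1.

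Averaged over both genotypes, HFD against normal diet gave a median of 0.25, with 27 of 31 genes positive (47.2% of all genes) and 0 called in edgeR (against 1.04% of all genes). The smallest p belonged to C4b (log2 change 0.73, SE 0.21, adjusted p 0.112), F10 (0.47, SE 0.16, adjusted p 0.161) and C8a (0.55, SE 0.19, adjusted p 0.161). In ko livers C4b had 1521, 2162 and 2523 CPM on normal diet and 3928, 2373 and 1828 CPM on HFD. F10 (ENSMUSG00000031444, chromosome 8, 13037308 to 13056676), which lies 1498 bases from F7 on the same strand, had 481, 532 and 551 CPM in ko_normal and 772, 558 and 453 CPM in ko_HFD. In both genes ko_HFD 1 lay above the ko_normal libraries and ko_HFD 3 did not. Unadjusted p-values under 0.05 were found for 8 of the 31 (against 17.6% of all genes), 7 higher on HFD and 1 lower. The lower gene was C9 (log2 change -0.34, SE 0.14, adjusted p 0.248). DESeq2 called 1, C4b, and limma voom called 0, in fits that called 807 and 610 genes in all. The median was 0.15 without ko_HFD 1.

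The remaining genes are given by role as group means with their SD over 3 libraries. Among the vitamin K-dependent factors, F2 had 1458 ± 97 CPM in wt_normal, 1384 ± 360 in ko_normal, 1941 ± 200 in wt_HFD and 1706 ± 420 in ko_HFD, with every wt_HFD library above every wt_normal library. F9, the factor IX gene on chromosome X, was among the steadier genes, at 122 ± 21, 149 ± 12, 136 ± 14 and 135 ± 14 CPM in the same order of groups. F5, the cofactor of factor X, had 233 ± 43, 269.8 ± 21, 201 ± 51 and 226 ± 36 CPM, and the groups overlapped in each comparison.

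In the contact system, F12, which encodes the factor that starts the intrinsic pathway, had 579 ± 63 CPM in wt_normal, 659.5 ± 47 in ko_normal, 701 ± 71 in wt_HFD and 688 ± 110 in ko_HFD. Kng1, the precursor of bradykinin, had 1894 ± 290, 2569.9 ± 160, 2743 ± 640 and 2717 ± 1100 CPM in that order, so that every ko_normal library lay above every wt_normal library while the HFD groups were widely spread. Of the anticoagulants, Proc, the protein C gene, had 727 ± 130, 974 ± 86, 1022 ± 220 and 1092 ± 180 CPM, and every ko_normal library lay above every wt_normal library. Serpinc1 had 1764 ± 240 CPM in wt_normal and 2055 ± 190 CPM in ko_normal, which overlapped, and Serpind1 had 252 ± 28 and 273 ± 33 CPM. Plg, the precursor of plasmin, had 1995 ± 250, 2479 ± 250, 2239 ± 140 and 2346 ± 580 CPM in the 4 groups, with overlap in every comparison.

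In the lectin pathway, Masp1 stayed between 5.01 and 9.18 CPM in all libraries, and Masp2, whose product cuts C4 and C2, had 113 ± 7.9 CPM in wt_normal against 145 ± 21, 141 ± 11 and 145 ± 19 CPM in ko_normal, wt_HFD and ko_HFD. Serping1 encodes the C1 inhibitor, which also blocks the contact proteases, and had 779 ± 47, 929 ± 310, 988 ± 180 and 805 ± 170 CPM. In the alternative pathway, Cfi, whose product inactivates C3b and C4b, had 352 ± 38, 482 ± 170, 419.7 ± 33 and 434 ± 130 CPM, and Cfb had fitted log2 changes with an SE of 0.72 in the 4 pairwise comparisons, the largest of the 31. In the terminal pathway, Hc had 769 ± 170, 879 ± 190, 1196 ± 210 and 1002 ± 390 CPM, and its groups overlapped in each comparison. Vtn, which binds the terminal complex and keeps it from membranes, had 3190.4 ± 430 CPM in wt_normal and 5359 ± 1000 CPM in wt_HFD without overlap, and 4032 ± 430 CPM in ko_normal and 4639 ± 1600 CPM in ko_HFD with overlap.

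Of 70 other genes of the same pathways, such as fibrinogen chains, complement receptors and regulators, 64 passed the filter. None was called in edgeR for ko against wt on either diet, for HFD in ko livers or for the interaction. At an unadjusted p under 0.05, 7 of the 64 were higher and 5 lower for ko against wt on normal diet (against 15.1% of all genes in either direction). The numbers were 2 and 6 on HFD (8.85% of all genes), 1 and 0 for HFD in ko livers (5.63%) and 2 and 3 for the interaction (5.02%). For HFD in wt livers, 18 were higher and 4 lower (17% of all genes). In the averages, 7 were higher and 6 lower for ko against wt (18.7%), and 13 and 3 for HFD against normal diet (17.6%). For HFD in wt livers 1 of the 64 was called (against 0.693% of all genes), Serpina10. This gene encodes the inhibitor of factor X that acts with protein Z. It had 161, 122 and 119 CPM in wt_normal and 523, 474 and 595 CPM in wt_HFD, and it rose by a log2 change of 1.99 (SE 0.33, adjusted p 0.0259). It also rose with HFD averaged over both genotypes (log2 change 1.15, adjusted p 0.0385), with 134, 294 and 252 CPM in ko_normal and 432, 196 and 221 CPM in ko_HFD, where only replicate 1 lay above the ko_normal libraries. C4a, the near-identical copy of C4b, rose with HFD averaged over genotypes by a log2 change of 1.86 (SE 0.38, adjusted p 0.0413), from group means of 31.4 and 103 CPM on normal diet in wt and ko to 197 and 214 CPM on HFD. Serpina10 and C4a were the 2 genes called in that average (against 1.04% of all genes). C4a had 27, 33.5 and 33.8 CPM in wt_normal and 178, 340.5 and 73.4 CPM in wt_HFD, without overlap. In ko livers it had 134, 62.9 and 111 CPM on normal diet and 327, 84.8 and 231 CPM on HFD, which overlapped.

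For ko against wt averaged over diets, 2 of the 64 other pathway genes were called (against 1.16% of all genes). Thbd, thrombomodulin, the thrombin receptor of endothelial cells that activates protein C, was lower in ko (log2 change -1.89, SE 0.37, adjusted p 0.0371). It had 4.8, 8.43 and 5.42 CPM in wt_normal, 0.464, 1.4 and 0.763 CPM in ko_normal, 1.26, 6.13 and 4.59 CPM in wt_HFD and 1.81, 1.67 and 2.63 CPM in ko_HFD, beside the lower endothelial markers in ko, whose part was not tested. Hgfac, a protease related to factor XII that activates hepatocyte growth factor, was higher in ko (log2 change 0.74, SE 0.15, adjusted p 0.0388). Its group means were 155 ± 8.7 and 313 ± 15 CPM in wt and ko on normal diet and 265 ± 82 and 364 ± 57 CPM on HFD. It had 157, 146 and 163 CPM in wt_normal and 299, 313 and 328 CPM in ko_normal, without overlap. On HFD it had 356, 196 and 243 CPM in wt and 418, 370.5 and 304 CPM in ko, which overlapped. The calls of these 4 genes ended when single libraries were left out, with adjusted p-values of 0.0518 to 0.0963 for Serpina10 in wt without wt_normal 2 or 3, ko_normal 3, or wt_HFD 1 or 2. For the averages, the call ended without any of 9 libraries for Thbd (adjusted p 0.0662 to 0.0955) and for Serpina10 (0.0552 to 0.103), of 10 for C4a (0.0535 to 0.107) and of 11 for Hgfac (0.0544 to 0.1).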

How the data were processed

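RNA counts of 12 liver libraries were used as deposited. The authors deposited whole-number counts per gene; per the submitters' processing notes, CASAVA 1.8 and Bowtie 0.12.2 were used and the builds mm8 and mm9 are named, while the counter, the annotation and any use of strand were not given in the sources used here. Groups and replicate numbers came from the labels. Genes were filtered with filterByExpr, scaled by TMM factors and fitted in edgeR 4.0.16 with 1 quasi-likelihood model of 4 groups (8 residual and 4.66 median prior degrees of freedom); tests were two-sided, with Benjamini-Hochberg adjustment over 14433 genes in each of 7 contrasts. The test was tried on simulated counts first. DESeq2 1.42.0, limma 3.58.1 (voom), other filters and scalings, the replicate block and leaving out each library were alternatives; counts of genes without overlap that leave out wt_normal 2 or ko_HFD 1 were added after seeing the data. Gene positions are those of GENCODE on GRCm38, looked up by identifier; they are not the authors' coordinates. Replicate pairs differed by 39.5 to 199 chi-square units per degree of freedom over genes with at least 20 counts, far above counting error. The 31 genes, the lists and the tests were chosen with earlier results of these data known. Values per library are given for the 3 genes with the smallest p in each contrast, and for up to 4 called genes per contrast of the other pathway genes; other genes named with library values, such as C3, Pros1, Serpinc1 and Serpind1, were chosen after their values were seen.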

Additional observations from a re-analysis of the deposited data

How the results depend on the processing

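The count of called genes among the 31 was 0 in the edgeR fit of each comparison and stayed 0 under every alternative run for ko against wt on HFD, HFD against normal diet in ko and the interaction. In the ko against wt comparison on normal diet it was 1 without a filter on low counts, 2 with DESeq2 and 9 with limma voom. For HFD against normal diet in wt it was 2 without a filter, 5 with DESeq2 and 1 with voom, and 0 to 1 over the fits that left out 1 library each. For ko against wt averaged over diets it was 2 without a filter and 2 with DESeq2, and for HFD averaged over genotypes it was 1 with DESeq2. In these alternatives many more genes of the whole table were called as well, and the cause was not tested. For the comparisons with such calls, the totals over all genes in the DESeq2 and voom fits are given above. The totals without a filter are not given, so those counts cannot be set against a share of all genes. No called value changed its sign. With the replicate block 0 of the 31 were called in each comparison, and the calls of Serpina10 and C4a averaged over genotypes ended (adjusted p 0.0616 for each). The deviations of libraries of the same number had correlations of -0.21 to 0.33, with 3 of 12 over 0.1. Libraries of different numbers were not compared, so these values cannot tell whether the numbers pair the samples. Hgfac lost its call with library totals (adjusted p 0.0559). Counts of Cfb were low, and whether this came from the counting of reads in shared exons was not tested. Its changes had an SE of 0.72 in the 4 pairwise comparisons and were not called. A fit of the compared groups alone was run for the 4 pairwise comparisons.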
